A study of Mus musculus with 18 samples.

Results

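The genes described here present peptides on MHC class I. They were chosen by name as 8 genes: the heavy chains H2-K1 and H2-D1, the light chain B2m, the peptide transporter subunits Tap1 and Tap2, the loading factor Tapbp, the trimming peptidase Erap1 and the transcriptional regulator Nlrc5. Of these, 7 had a row in the count tables of 1 strain or the other, among 40327 genes of the 129 tables and 39147 of the Cast tables. The 129 tables held 6 of them and the Cast tables held 6, and 5 could be matched between the strains, among 28374 matched genes. H2-D1 was read in the 129 tables only and Nlrc5 in the Cast tables only. H2-K1 is not analysed here.

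The samples were CD23+ B cells from the spleens of female mice, F1 offspring of 129S1 and Cast (129xCast), all Xist+/-. CD23 marks mature B cells. Every group carried the Xist+/- genotype, and per the labels X inactivation was skewed onto the Cast X chromosome in all of them. The naive group held 3 untreated samples, and the stimulated group held 3 samples kept in vitro with 1 µM CpG for 24 h. CpG oligonucleotides are ligands of Toll-like receptor 9 and activate B cells. No sample labelled as cultured without CpG was at hand, so culture and CpG cannot be told apart. The labels give no age and do not say which animals the samples came from, so p-values measure the spread between these samples, which may be technical. Another 12 samples of the series are not analysed here. Reads counted in genes ran from 1987266 to 2928236 per sample in the 129 tables and from 2465073 to 3321753 in the Cast tables.

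MHC class I molecules carry short peptides from inside the cell to its surface, where CD8+ T cells inspect them. Proteasomes cut the peptides, the Tap1-Tap2 transporter pumps them into the endoplasmic reticulum, Erap1 trims them there, and tapasin (Tapbp) holds the empty heavy chain and B2m next to the transporter until a peptide fits. Nlrc5 is a transactivator that drives many of these genes together. Their promoters are known for a shared module that holds a kappa B element, an interferon-stimulated response element (ISRE), an X2 element resembling a cyclic AMP response element and a CCAAT box.

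Promoter stretches of 4 of the genes are shown because 3 of them (H2-D1, B2m and Tap1) had lower counts after CpG and the other (Erap1) had higher counts. They come from RefSeq on build GRCm38.p6, which is the C57BL/6J sequence and neither parental allele here. 6 of the 8 genes had a window in that table. Capitals mark the letters of 4 motifs, each searched on both strands. These are kappa B (GGGA, any 4 bases, then CC), ISRE (GAAA, any 2 bases, then GAAA), the X2 core (TGACG) and CCAAT. Each stretch runs from 10 bases before the first match to 10 bases after the last match that begins before the start site. All 4 lie on the plus strand: H2-D1 at chr17:35262913-35263055, B2m at chr2:122147538-122147648, Tap1 at chr17:34187324-34187484 and Erap1 at chr13:74639839-74639868.
H2-D1: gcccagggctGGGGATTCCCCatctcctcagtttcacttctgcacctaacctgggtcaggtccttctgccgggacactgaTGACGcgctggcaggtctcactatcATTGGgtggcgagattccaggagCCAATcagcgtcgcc
B2m: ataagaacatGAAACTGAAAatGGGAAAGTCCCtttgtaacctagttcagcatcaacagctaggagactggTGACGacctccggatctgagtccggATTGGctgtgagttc
Tap1: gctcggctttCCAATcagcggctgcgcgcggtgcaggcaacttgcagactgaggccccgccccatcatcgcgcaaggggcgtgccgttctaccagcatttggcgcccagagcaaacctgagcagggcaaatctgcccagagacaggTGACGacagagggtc
Erap1: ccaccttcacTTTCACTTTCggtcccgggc
H2-D1 and B2m both hold overlapping kappa B matches on the 2 strands, followed by the X2 core and the reversed CCAAT letters, and B2m has an ISRE match just upstream. Tap1 holds the X2 core without a kappa B match, and Erap1 holds an ISRE match on the minus strand across its start site. The window of Tapbp, whose counts also fell, is not shown. It holds 2 CCAAT matches and none to kappa B, ISRE or the X2 core. Of 27025 promoter windows of 300 bases, 20.5% hold the kappa B letters, 3.49% the ISRE letters, 21.0% the X2 core and 37.9% the CCAAT letters on either strand. A match describes the letters only and is not evidence of binding.

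The heavy chain H2-D1 and its partner B2m were lower after CpG, as were the transporter, tapasin and Nlrc5, while Erap1 was higher. Values are given as CPM, the reads of a gene per 1000000 gene reads of the same table after TMM scaling. On the 129 allele 5 of the 6 genes fell and Erap1 rose at an adjusted p under 0.05 in edgeR's quasi-likelihood test. Across all 10581 genes tested there, 27.0% fell and 28.2% rose, so 55.2% passed in all. On the Cast allele 5 of 6 fell and Erap1 rose, against 31.5% falling and 30.7% rising among 10365 genes, 62.2% in all. With both alleles summed, 4 of the 5 matched genes fell and Erap1 rose, against 34.4% and 34.2% among 10343 genes, 68.7% in all. The median log2 change of the 6 genes was -1.05 for 129 and -0.94 for Cast. Over all genes tested it was -0.01 for 129 and -0.04 for Cast. The naive and stimulated samples did not overlap for any of these genes in either strain, nor for any with alleles summed. Among all genes tested, 64.8% had no overlap on the 129 allele, 68.5% on the Cast allele and 73.8% with alleles summed. All genes with a row passed the filter on low counts.

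**Figure D1:**
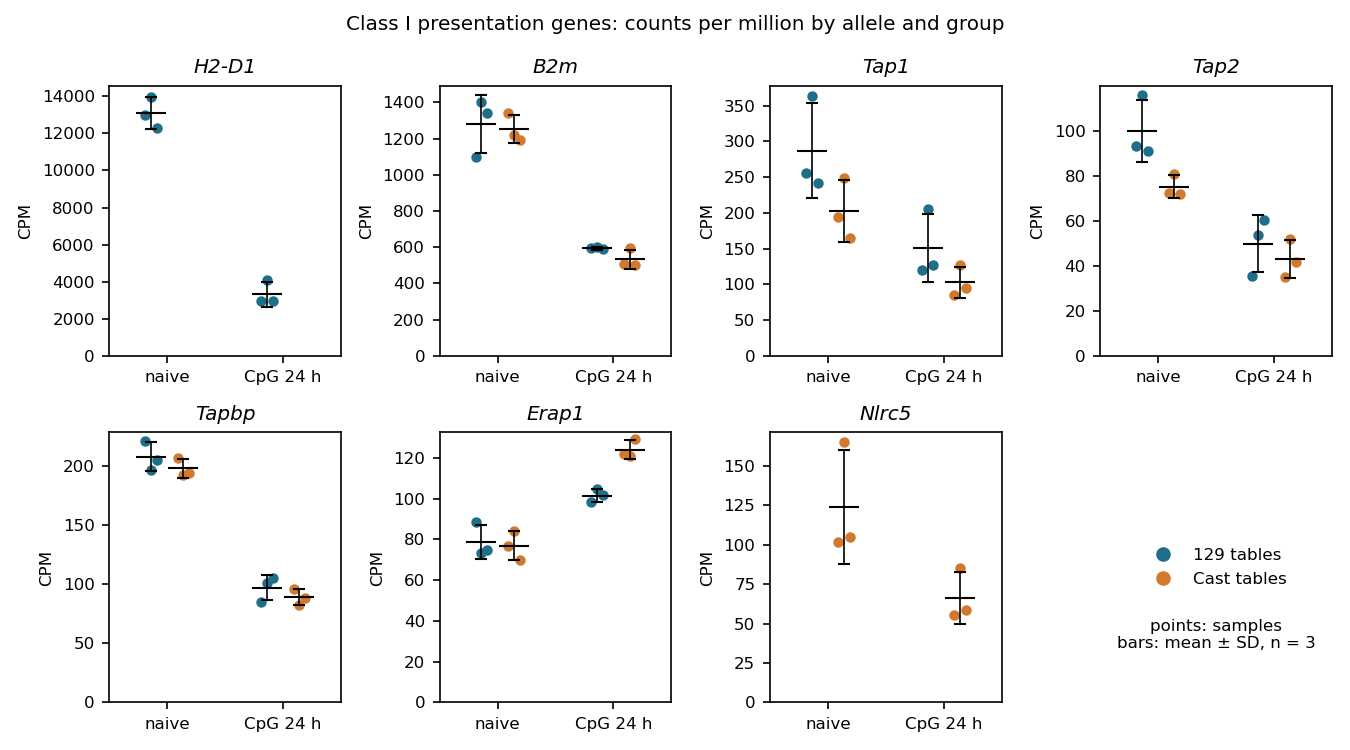
CPM of each gene (vertical axes, linear from 0) in naive and CpG-stimulated samples (horizontal axes), 129 tables in blue and Cast tables in orange. Points are samples, and bars are the mean ± SD with n = 3. H2-D1 drops from 13086 to 3324 and Erap1 is the gene whose points rise.

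H2-D1 encodes the heavy chain that holds the peptide. On the 129 allele it stood at 12974, 13988 and 12296 CPM in naive replicates 1 to 3 and at 2944, 4088 and 2939 CPM in the stimulated replicates. The lowest naive sample was thus far above the highest stimulated one. The means were 13086 ± 852 and 3324 ± 662 CPM (SD, n = 3 each), a log2 change of -1.98 with a standard error of 0.16, or 3.94-fold lower (edgeR adjusted p = 6.10e-05). A lower log2 change was found for 9.21% of the genes tested in the 129 tables. Class I heavy chains share long stretches of sequence, and how the authors' counting handled reads that match several of them is not given in the sources used here, so the identity of these reads is uncertain.

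B2m encodes the light chain that every classical class I heavy chain pairs with. Its 129 counts were 1100.3, 1404 and 1341 CPM in naive samples and 593, 604 and 589 CPM in stimulated ones. The stimulated samples lay close together, with an SD of 7.79 CPM around 595. The 129 allele fell by 1.11 on the log2 scale (standard error 0.12, edgeR adjusted p = 2.42e-04). On the Cast allele it stood at 1343, 1222 and 1192 CPM before and 508, 595 and 501 CPM after CpG. That is a log2 change of -1.23 (standard error 0.13, edgeR adjusted p = 3.77e-05). With both alleles summed B2m was 2.20-fold lower.

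The quotient of H2-D1 to B2m reads was lower in every stimulated library than in every naive one. For each B2m read the 129 tables held 11.8, 9.96 and 9.17 H2-D1 reads in naive samples and 4.97, 6.77 and 4.99 in stimulated samples. This quotient does not depend on library scaling. The log2 change of the quotient was -0.89 (exact permutation p = 0.1, two-sided, which no split of 3 against 3 can go below, and 0.12 after Benjamini-Hochberg adjustment over 6 such quotients, which were chosen after the values were seen).

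Tap1 and Tap2 form the channel that brings peptides to the heavy chain. Tap1 read 256, 363 and 241 CPM in naive and 120, 206 and 127 CPM in stimulated samples of the 129 tables. On the Cast allele it read 194, 249 and 165 CPM against 85.9, 128 and 94.7 CPM. Replicate 2 was the highest sample of its group on both alleles, in both groups, and the groups still did not overlap. The log2 change was -0.93 on the 129 allele (standard error 0.25, edgeR adjusted p = 0.0184) and -0.98 on the Cast allele (standard error 0.20, edgeR adjusted p = 0.00196). The 129 call was lost without naive replicate 2, stimulated replicate 1 or stimulated replicate 3, with edgeR adjusted p of 0.0567, 0.0642 and 0.0676. The Cast call held in each of those fits. With the replicate number as a block the 129 fall of Tap1 passed (edgeR adjusted p = 4.49e-06).

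Tap2 had 93.1, 116 and 91.1 CPM in naive and 35.7, 53.8 and 60.3 CPM in stimulated samples on the 129 allele. Its Cast counts were 72.3, 81.1 and 72.2 CPM, then 35.1, 52.1 and 41.8 CPM. The fall was 1.00 on the log2 scale for 129 (standard error 0.22, edgeR adjusted p = 0.00579), and for Cast the log2 change was -0.81 (standard error 0.17, edgeR adjusted p = 0.00263). For each Tap2 read there were 2.72, 3.11 and 2.47 Tap1 reads in naive and 2.88, 3.10 and 2.18 in stimulated samples with alleles summed, and the groups overlapped.

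Tapbp encodes tapasin, the bridge between transporter and heavy chain. It stood at 221, 197 and 205 CPM before and 85.0, 101 and 105 CPM after CpG in the 129 tables. The Cast tables gave 207, 193 and 194 CPM, then 95.9, 82.5 and 88.6 CPM. Replicates were tight on both alleles. The log2 change was -1.10 on 129 (standard error 0.13, edgeR adjusted p = 2.70e-04) and -1.15 on Cast (standard error 0.12, edgeR adjusted p = 2.96e-05).

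Erap1, the aminopeptidase that trims peptides to class I length, went the other way. On the Cast allele it rose from 76.8, 83.9 and 70.0 CPM to 122, 121 and 129 CPM, a log2 change of 0.69 (standard error 0.12, edgeR adjusted p = 0.00105). On the 129 allele it read 88.4, 73.4 and 74.7 CPM before and 98.2, 105 and 102 CPM after. The 129 groups were separated by a narrow gap, and the log2 change was 0.36 (standard error 0.13, edgeR adjusted p = 0.0422). That call was lost with DESeq2, with size factors of the RLE kind, without the filter on low counts, and without any 1 of naive replicate 2, naive replicate 3 or the 3 stimulated replicates, with adjusted p from 0.0539 to 0.112. With the replicate number as a block the 129 rise passed (edgeR adjusted p = 0.0301). Summed over the alleles the rise was 1.49-fold (edgeR adjusted p = 5.68e-04), and it held in every alternative fit run. In the GENCODE mouse annotation 11.5% of Erap1's exon bases lie under exons of the calpastatin gene on the opposite strand. The strand setting of the counting is not given in the sources used here. Whether reads in those bases were counted for Erap1, for calpastatin or set aside as ambiguous is thus not known. Calpastatin counts had a summed log2 change of -0.80, opposite in sign to Erap1. Exons of a noncoding gene on the opposite strand likewise cover 24.9% of the exon bases of Tapbp. For Tap2 the noncoding genes Gm15821 and Gm20496 cover 14.1% and 4.36%. Exons of Zbtb22 on the same strand cover 4.11% of Tapbp, and those of Psmb9 on the opposite strand 3.87% of Tap1.

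Nlrc5, the class I transactivator, was read on the Cast allele only. It stood at 102, 165 and 105 CPM in naive and 55.2, 84.9 and 58.5 CPM in stimulated samples. Replicate 2 was again the highest of each group, and the groups did not overlap. The means of 124 ± 36.0 and 66.2 ± 16.3 CPM (SD, n = 3 each) gave a log2 change of -0.90 with a standard error of 0.23, or 1.87-fold lower (edgeR adjusted p = 0.00802).

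**Figure D2:**
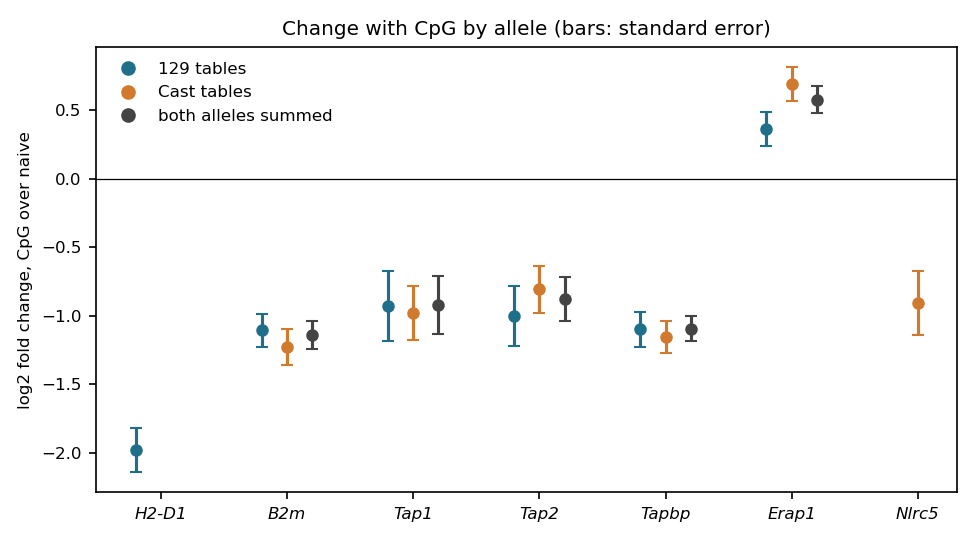
Log2 fold change of stimulated over naive samples (vertical axis) for each gene (horizontal axis) in the 129 tables, the Cast tables and both summed, with standard errors as bars. The lowest point is H2-D1 at -1.98, Erap1 lies above 0 on both alleles, and the other genes lie between -0.81 and -1.23.

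Cell type markers moved with the groups too. On the 129 allele all 8 B cell markers tested fell after CpG, against 27.0% of all genes. On the Cast allele all 7 fell, against 31.5% of all genes. The summed level of the B cell markers was 8969 to 11207 CPM in naive and 3181 to 3945 CPM in stimulated samples of the 129 tables. Fcer2a, which encodes CD23, read 272 to 485 CPM in naive and 6.43 to 11.3 CPM in stimulated samples there. Of the 13 macrophage markers with a row, all 12 that were tested fell in each strain, from sums of 2984 to 6183 CPM to 4.85 to 7.50 CPM in the 129 tables. None read above 3.47 CPM in a stimulated sample. They passed the filter on low counts through the naive samples, so they could only be lower. After CpG, Cd163 and Fcna had no read in the 129 tables, and Axl, C1qa, Fcna and Mertk had none in the Cast tables. T cell markers summed to 39.6 to 47.8 CPM in naive and to at most 1.39 CPM in stimulated samples of the 129 tables. Plasma cell markers summed to 186 to 339 and 228 to 276 CPM there, but moved in opposite directions. Xbp1 read 81.7 to 102 CPM in naive and 179 to 220 CPM in stimulated samples, and Jchain 98.1 to 255 and 28.2 to 37.5 CPM. Of the 3 tested there, 2 rose and 1 fell, against 28.2% rising and 27.0% falling among all genes. Prdm1 read at most 1.71 CPM in those naive samples, so it could only be higher. Macrophages also express class I genes, and their part in the changes was not tested. Among the naive samples, replicate 1 had the highest macrophage sum and replicate 2 the lowest, with 6183, 2984 and 3855 CPM in the 129 tables and 5188, 2402 and 3571 CPM in the Cast tables. In the 129 tables naive replicate 2 had the highest H2-D1, B2m, Tap1 and Tap2 CPM and the lowest Tapbp and Erap1 CPM. In the Cast tables it had the highest Tap1, Tap2, Erap1 and Nlrc5 CPM and the lowest Tapbp CPM, and B2m was highest in replicate 1. In bulk RNA, fewer cells of a type and less RNA per cell cannot be told apart.

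The strain bias of the counts was read from the Cast share, that is Cast reads as a percentage of 129 and Cast reads of a matched gene. Over autosomal genes the share was 52.7% ± 0.793 in naive and 52.9% ± 0.812 in stimulated samples (SD, n = 3 each). The group means of the 5 matched genes ran from 44.4% to 58.5%. Only Tap1 passed the test of unequal alleles toward 129 in both groups. In naive samples 1 of the 5 genes passed the test of unequal alleles, against 27.5% of 10051 genes tested (15.2% toward Cast and 12.3% toward 129), all without a replicate block. With the replicate number as a block 2 of the 5 passed (B2m and Tap1), against 45.8% of all genes. In stimulated samples 2 of the 5 passed, against 27.4% (15.2% toward Cast and 12.2% toward 129), and with the block the same 2 (Erap1 and Tap1) passed, against 46.6%.

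Tap1 had a Cast share of 46.4%, 44.1% and 44.3% in naive samples and 44.8%, 41.6% and 46.7% in stimulated ones. All 6 shares were below the autosomal mean of their group, as were those of Tap2, narrowly in stimulated replicates 1 and 2. The log2 Cast-to-129 ratio was -0.29 in naive (standard error 0.08, edgeR adjusted p = 0.0337) and -0.33 in stimulated samples (standard error 0.08, edgeR adjusted p = 0.0233). Both calls were lost with DESeq2, at adjusted p of 0.105 and 0.0716. The naive call was also lost without any 1 naive sample or stimulated replicate 1 (edgeR adjusted p from 0.0524 to 0.149), and the stimulated call without stimulated replicate 1 or 2 (0.0747 and 0.126).

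Erap1 leaned toward Cast after CpG. Its Cast share was 49.8%, 56.8% and 52.2% in naive samples and 58.6%, 57.0% and 60.0% in stimulated samples, so the groups did not overlap, though naive replicate 2 came within 1 percentage point of the stimulated ones. The log2 ratio was 0.17 in naive (standard error 0.11, edgeR adjusted p = 0.289) and 0.50 in stimulated samples (standard error 0.10, edgeR adjusted p = 0.0106). The second call was lost without stimulated replicate 1 or 3 (edgeR adjusted p = 0.0535 and 0.0704). The change of the ratio with CpG, 0.33 with a standard error of 0.15, did not pass the test across all genes (edgeR adjusted p = 0.468, unadjusted 0.0614). Shares whose groups do not overlap were found for 20.0% of all genes tested.

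B2m had Cast shares of 58.2%, 50.0% and 50.9% in naive and 49.4%, 53.1% and 50.1% in stimulated samples. Naive replicate 1 stood apart, with a 95% Wilson interval of 57.0% to 59.4% from 6161 reads, and the interval covers counting error only. The naive log2 ratio of 0.18 (standard error 0.10) did not pass in edgeR (adjusted p = 0.232) and passed with the replicate block (adjusted p = 0.0218). Tap2 read 47.0%, 44.6% and 48.0%, then 52.8%, 52.6% and 44.9%. Tapbp read 51.6%, 53.0% and 52.5%, then 56.2%, 48.4% and 49.8%. For these 2 genes the groups overlapped, and neither departed from equal alleles in either group (edgeR adjusted p from 0.283 to 0.991).

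No matched gene of the 5 changed its allelic ratio with CpG at an adjusted p under 0.05, nor at an unadjusted p under 0.05 in edgeR, and none passed the adjusted threshold in DESeq2. Across all genes 0.945% did so, or 7.69% with the replicate block. The log2 changes of the ratio ran from -0.13 (B2m, standard error 0.14) to 0.33 (Erap1), with 0.21 for Tap2, -0.03 for Tap1 and -0.05 for Tapbp. Scaling each strain table by its own total lowered the median log2 ratio of all genes in naive samples by 0.13, and the share of called genes that favoured Cast went from 55.4% to 41.9%. Under it the naive ratios of the 5 genes kept their signs, and the small stimulated ratios of B2m, Tap2 and Tapbp turned negative. The naive log2 ratio of Tapbp was 6.65e-05 at its lowest among the alternative fits, so its sign shows no clear lean.

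**Figure D3:**
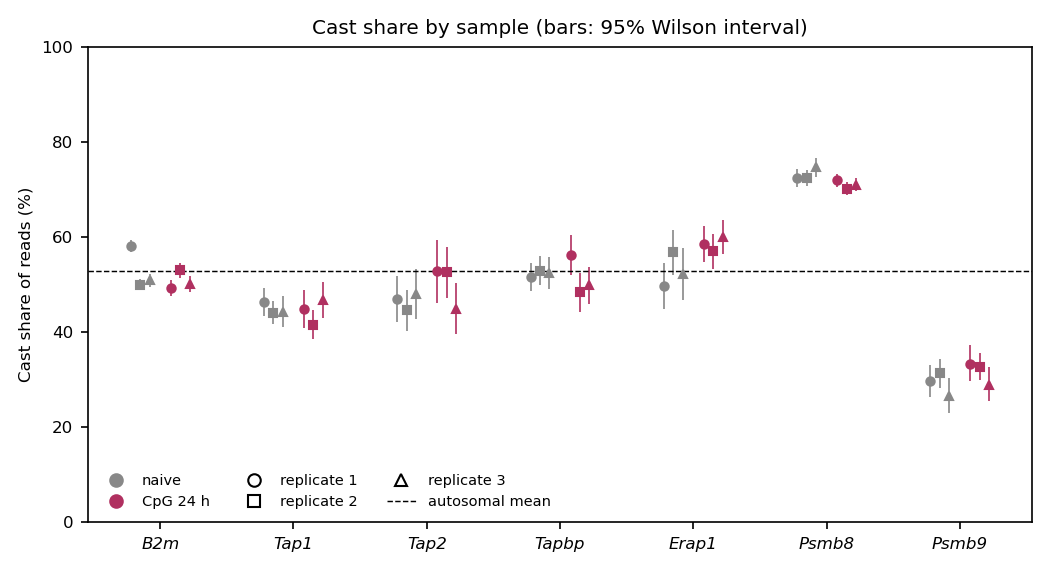
Cast share of the reads (vertical axis, percent) of the 5 matched genes and of Psmb8 and Psmb9, per sample, with 95% Wilson intervals as bars, naive in grey and CpG in red, and a symbol for each replicate number. The dashed line is the mean share of autosomal genes. Psmb8 lies above 70% and Psmb9 below 34% in all samples, while the other 5 genes lie between 41.6% and 60.0%.

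The Cast share of Psmb8 and Psmb9, immunoproteasome genes that neighbour Tap1 and Tap2 on chromosome 17, lay further from the autosomal mean than that of any of the 5 genes. Psmb8 had 73.3% ± 1.31 Cast reads in naive samples (log2 ratio 1.45, edgeR adjusted p = 5.95e-06) and Psmb9 had 29.2% ± 2.42 (log2 ratio -1.28, edgeR adjusted p = 1.12e-04; SD, n = 3 each). The order of the 2 genes was the same in all 6 samples. Part of the exons of Psmb8 (14.7% of bases) and of Psmb9 (5.79%) overlap a gene on the opposite strand, which for Psmb9 is Tap1.

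Outside the 8 genes, most of the listed genes that supply and load the peptides were higher after CpG. These lists, like the 8 genes, are described by counts, with the alleles summed unless a strain is named. With alleles summed, 34.2% of all genes tested rose and 34.4% fell, so 68.7% passed in all. Of 5 loading chaperones and editors, 4 rose and 1 fell. Canx, a lectin chaperone that holds new heavy chains, rose from 464, 343 and 408 CPM to 1541, 1121 and 1452 CPM, a log2 change of 1.76 (edgeR adjusted p = 9.06e-06). Calr, which takes over once B2m has bound, rose by 1.56 on the log2 scale and the general chaperone Hspa5 by 1.27 (adjusted p = 6.18e-06 and 3.94e-05 in edgeR). Tapbpl, a tapasin relative that edits peptides outside the loading complex, fell by 1.21 (edgeR adjusted p = 1.48e-04), in the direction of Tapbp itself. Canx, Calr and Hspa5 also serve the folding of many other proteins.

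Among 9 genes of peptide supply, 8 could be tested with summed alleles, of which 5 rose, Psmb10 fell and 2 did not pass. The 6 that passed are a share near the 68.7% of all genes. Psmb8, a catalytic subunit of the immunoproteasome, rose from 509, 617 and 480.4 CPM to 762, 968 and 768 CPM, a log2 change of 0.64 (edgeR adjusted p = 0.00265). Psme1 and Psme2, which form the proteasome activator PA28, rose by 0.58 and 1.36 on the log2 scale (edgeR adjusted p = 9.60e-04 and 1.59e-06). Psmb9 stood at 164, 202 and 145 CPM before and 118, 210.0 and 120 CPM after, with overlapping groups and a log2 change of -0.19 (edgeR adjusted p = 0.491). For each Tap1 read there were 1.88 ± 0.159 Psmb8 reads in naive and 5.56 ± 0.628 in stimulated samples (SD, n = 3 each, two-sided exact permutation p = 0.1).

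The constitutive subunits that immunoproteasome subunits replace all rose, by 2.00 for Psmb5, 1.35 for Psmb6 and 1.86 for Psmb7 on the log2 scale (edgeR adjusted p = 7.32e-05, 4.52e-06 and 3.85e-07). Within each library the quotient of Psmb8 to Psmb5 reads had a log2 change of -1.35, that of Psmb9 to Psmb6 one of -1.57 and that of Psmb10 to Psmb7 one of -2.26. The naive and stimulated quotients did not overlap in any of the 3 pairs (two-sided exact permutation p = 0.1 each, 0.12 adjusted over the 6 quotients).

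Other class I and class I-like heavy chains were also lower after CpG. Of 20 such genes on the list, 12 had a row in the 129 tables and 8 passed the filter on low counts, of which 7 fell and Mr1 did not pass the test, where 27.0% of all genes fell and 55.2% passed in all. On the Cast allele 9 had a row, 6 passed the filter and all 6 fell, where 31.5% of all genes fell and 62.2% passed in all. Fcgrt and Hfe in both strains and H2-Q10 in the 129 tables passed the filter through the naive samples alone, so they could only be lower. Without them, 4 of 5 fell on the 129 allele and 4 of 4 on the Cast allele. Fcgrt had no read in any stimulated sample, which allows up to 3 reads in each. H2-Q4, a heavy chain read on the 129 allele only, fell from 5674, 6756 and 5315 CPM to 1597, 2015 and 1594 CPM, a log2 change of -1.77 (standard error 0.15, edgeR adjusted p = 7.40e-05). H2-T23, the mouse counterpart of HLA-E that carries leader peptides of other class I chains, fell by 2.33 on the log2 scale. H2-T24 had a log2 change of -2.34, and H2-M3, which presents formylated peptides, one of -1.94 (edgeR adjusted p = 1.10e-06, 1.31e-05 and 3.60e-05 for the last 3). The falls of H2-M3 in single strains were lost without the filter on low counts (edgeR adjusted p = 0.0573 for 129 and 0.0582 for Cast), and the 129 one also without stimulated replicate 2 (edgeR adjusted p = 0.0573). These genes are close relatives, so the split of reads between them is uncertain. H2-T23 reads were 10.4% ± 1.12 Cast in naive samples (SD, n = 3, edgeR adjusted p = 1.07e-05).

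**Figure D4:**
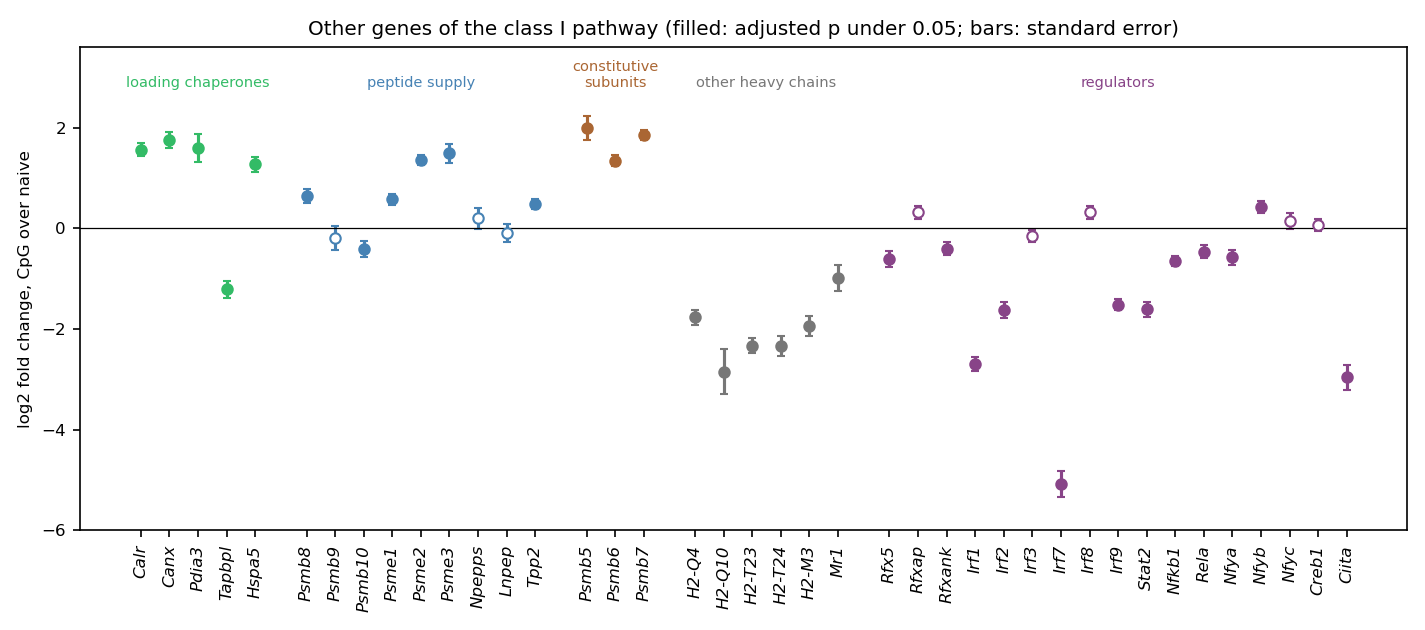
Log2 fold change of stimulated over naive samples (vertical axis) for the listed genes that were tested (horizontal axis), grouped by list, with standard errors as bars and filled points for an adjusted p under 0.05. Alleles are summed except for Npepps, H2-Q4 and H2-Q10, which are from the 129 tables, and Fcgrt and Hfe are left out because their stimulated samples had at most a few reads. Canx is highest among the chaperones at 1.76, the heavy chains lie below 0, and Irf7 is the lowest point at -5.08.

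Of 17 regulators of class I genes, 11 fell with summed alleles, Nfyb rose and 5 did not pass. The 12 that passed are a share near the 68.7% of all genes, of which 34.4% fell. Irf7 passed the filter on low counts through the naive samples alone, so it could only be lower, and 10 of the other 16 fell. Irf1 and Irf7, interferon regulatory factors that bind ISRE letters, had log2 changes of -2.69 and -5.08 (edgeR adjusted p = 4.65e-07 and 3.44e-07). Stat2 and Irf9, which transmit interferon signals, had log2 changes of -1.61 and -1.52 (edgeR adjusted p = 1.30e-05 and 2.71e-06). Irf3, another interferon regulatory factor, did not pass, with a log2 change of -0.15 (edgeR adjusted p = 0.266). Nfkb1, a subunit of the factor that binds kappa B letters, fell by 0.65 (edgeR adjusted p = 1.64e-04). Ciita, the class II relative of Nlrc5, fell from 1534, 1706 and 1427 CPM to 165, 287 and 150 CPM, a log2 change of -2.95 (edgeR adjusted p = 1.31e-05). Irf8 stood at 1742, 1255 and 1525 CPM before and 1804, 1922 and 1907 CPM after CpG, a log2 change of 0.32 that did not pass in edgeR (adjusted p = 0.0600) and passed with the replicate block (adjusted p = 0.0393).

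The genes nearest in pattern to B2m were taken by the root mean square difference of log2 CPM, centred over the 6 samples, among 10342 other genes with summed alleles. Rabep2, Lasp1 and Snx30 were nearest, at 0.0245, 0.0301 and 0.0449, where the median over all genes was 0.716. For Nlrc5 in the Cast tables, Dmwd, Zbtb37 and Creb3 were nearest among 9422 genes, at 0.0937, 0.107 and 0.108, against a median of 0.703. None of the class I genes was among the 3 nearest to either. With 3 places among that many genes, their absence does not show that they vary apart.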

How the data were processed

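Each of the 6 samples had a 129 and a Cast table of whole-number read counts per gene, deposited without normalization. The submitters' processing notes name STAR, featureCounts, Subread 2.0.0 and mm10 without roles, while the deposited count tables carry strain gene identifiers and end in the tally lines that htseq-count writes. How a read was given to a strain, how reads matching several genes were handled and the strand setting are not given in the sources used here, and the kit was stranded total RNA, per the labels' protocols. The tally lines were left out of all fits. Of reads in genes, in no gene or ambiguous, those in no gene made up 48.1% to 67.1% in the 129 tables. In the Cast tables they made up 44.5% to 62.1%. The RPKM table of the whole series was not used here.

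All genes of a table were fitted with edgeR 4.0.16 in R 4.3.3 (TMM factors, filterByExpr, robust quasi-likelihood test, Benjamini-Hochberg adjustment over all genes tested, threshold 0.05), for each strain and for the summed counts of genes matched by name and chromosome. Standard errors were derived from the F statistic. The allelic ratio was fitted with sample terms and the same library size for a sample's 2 alleles. Scripts were tested on simulated data. The comparison did without a replicate block, and DESeq2 1.42.0, other scalings, no filter, a replicate block and leaving out each sample were alternatives. Same-numbered samples of the 2 groups, paired by the titles, deviated together. Correlations were 0.443 to 0.608 in the 129 tables, 0.163 to 0.246 in the Cast tables and 0.486 to 0.585 for the log2 ratio. The block is therefore given where it changes a call of the 8 genes, for the 129 calls of Tap1 and Erap1, and for some listed genes. Ratio calls of other listed genes changed with it too. Among them was Irf8's ratio change, with edgeR adjusted p = 0.113 without and 0.0148 with the block.

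The genes, lists and motifs were chosen with earlier results of these data known. The 8 genes are always named, each list by up to 4 genes with the most reads, and the nearest patterns by the 3 genes of smallest difference. Pdia3, Psmb10, Mr1, Fcgrt, Hfe, H2-Q10, Irf1, Irf3, Irf7, Irf9, Stat2, Nfyb and Lnpep were named after their values were seen. So were the plasma cell markers Xbp1, Jchain and Prdm1. 1 gene of the regulator list is not reported here. Intervals are Wilson intervals at 95%.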

Additional observations from a re-analysis of the deposited data

Results flagged for a closer look

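Ciita, the class II transactivator and a relative of Nlrc5, changed by unequal amounts on the alleles. Its log2 change with CpG was -3.72 on the 129 allele and -2.55 on the Cast allele, and the test of the difference itself, the change of the Cast-to-129 ratio, gave 1.22 on the log2 scale (standard error 0.12, edgeR adjusted p = 0.00929). The Cast share was 52.5%, 55.2% and 52.1% in naive and 71.9%, 70.2% and 75.7% in stimulated samples, higher in 3 of 3. The call was lost without naive replicate 3 (edgeR adjusted p = 0.0578).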

How the results depend on the processing

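For the 8 genes, the falls in the Cast tables and in the summed counts, and the rise of Erap1 there, held in each alternative. The number of genes called with CpG ran from 5216 to 5477 (129), 5987 to 6319 (Cast) and 6603 to 7067 (summed) when 1 sample was left out. Genes with unequal alleles numbered 1851 to 2622 in naive and 1944 to 2564 in stimulated samples in those fits, and 4608 and 4687 with the replicate block. Genes with a changed ratio numbered 95, then 14 to 26 with a sample left out, 146 with DESeq2 and 773 with the block. Besides the calls named above, the block took Ciita's naive log2 ratio (0.19, adjusted p = 0.00612), H2-M3's (1.23, adjusted p = 4.69e-23), Psmb5 in the 129 tables (1.83, adjusted p = 5.76e-06) and Psmb9 there (-0.31, adjusted p = 0.0478) past the threshold, and it changed no other call of the 8 genes. With own table totals, signs turned for the stimulated log2 ratios of B2m (-0.0406), Tap2 (-0.0833) and Tapbp (-0.00255) and for the ratio change of Tap1 (0.0141). Leaving out 1 sample gave stimulated log2 ratios of -0.0163 to 0.0898 (B2m), -0.0702 to 0.157 (Tap2) and -0.0514 to 0.176 (Tapbp). It gave ratio changes of -0.217 to 0.0210 (B2m), -0.101 to 0.0503 (Tap1) and -0.187 to 0.0406 (Tapbp), and log2 changes of -0.462 to 0.113 for Psmb9 in the Cast tables. None of these passed the threshold, and the cause was not tested. Tap2 and Erap1 rest on 100 to 440 reads per allele and sample, which limits their shares.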

Other observations

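Several listed genes had Cast shares that went with the replicate number. H2-M3 read 44.0%, 80.5% and 80.0% in naive replicates 1 to 3 and 51.5%, 83.0% and 83.3% in the stimulated ones. Lnpep, an aminopeptidase that trims peptides for cross-presentation, read 55.8%, 84.5% and 91.7%, then 53.5%, 92.7% and 91.9%, from 72 to 101 reads per sample. H2-T24 read 47.7%, 60.3% and 56.2%, then 46.8%, 64.1% and 71.9%. Stat2, on chromosome 10, read 45.7%, 71.0% and 63.2%, then 36.9%, 68.8% and 66.7%. Without the replicate block none of these 4 genes passed the test of unequal alleles in either group (lowest edgeR adjusted p = 0.141). With the block all 4 passed in both groups, at edgeR adjusted p of 0.00538 or less. Replicate 1 was the low sample of each group for these 4 genes. It was also the low one over the matched genes of chromosome 17 together, which hold H2-M3, Lnpep and H2-T24, at 48.8%, 51.6% and 51.4%, then 49.5%, 56.6% and 56.8%. The summed H2-M3 fall was found in all 3 numbers. Tap1, Tap2 and Tapbp, on chromosome 17 too, showed no such split, with shares between 41.6% and 56.2%. Calr on chromosome 8 favoured Cast in every sample, with shares of 73.8%, 78.6% and 74.3% in naive and 75.0%, 75.6% and 71.8% in stimulated samples.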
